A study of Homo sapiens with 12 samples.

Results

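NF1, LZTR1, CBL, PTPN1 and ABL1 are 5 of the 543 genes repressed in a dual-sgRNA interference screen of K562 cells, and they form a set of genes that restrain or carry kinase and RAS signalling. They were chosen by name: a construct belonged to the set when either of its sgRNAs named one of the 5 genes. Each gene had 2 sgRNAs, so the set held 10 of 1086 targeting sgRNAs and 22720 of 1301881 constructs. Of these, 1100 constructs paired a member sgRNA with one of 55 non-targeting sgRNAs, and 80 paired sgRNAs of different members, 8 for each pair of genes.

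K562 is a chronic myelogenous leukemia line, and every culture here was of 1 K562 line that carried the interference machinery. Constructs were counted by sequencing in 2 screens, labelled 2022 and 2023, each with 2 replicate cultures. In both screens the start sample (T0) was taken 9 days after transduction, and each culture was then divided into a reference arm given vehicle (DMSO) and an arm given niraparib, an inhibitor of PARP1 and PARP2. The 2022 arm received 2 µM niraparib over 3 days and was harvested on day 18, with its reference. The 2023 arm received 2 µM, raised to 3 µM from day 2, over 4 days in all, and was harvested on day 19. The screens thus differ in dose, length and date together, and these cannot be told apart. With 3 arms, 2 screens and 2 replicates there were 12 libraries, and 4 cultures give each change 4 values.

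As background, RAS proteins are switched on by exchange factors such as SOS1, which the adaptor GRB2 brings to active tyrosine kinases. RAS proteins are switched off when they hydrolyse GTP. NF1 encodes neurofibromin, which speeds that hydrolysis, and LZTR1 encodes a substrate adaptor of the CUL3 ubiquitin ligase that lowers the amount of RAS-family proteins. CBL is a ubiquitin ligase that marks active tyrosine kinases for removal, and PTPN1 (PTP1B) is a tyrosine phosphatase that acts on receptor kinases, JAK2 and the BCR-ABL1 fusion. ABL1 is itself a tyrosine kinase and not a brake. K562 cells depend on the BCR-ABL1 fusion kinase, which is transcribed from the BCR promoter, whereas the ABL1 sgRNAs here were named for a single ABL1 transcript. Knockdown was not measured in these libraries.

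CRISPR interference acts at promoters, so the bases just upstream of the annotated start are shown for the 3 members whose knockdown lowered abundance. They are RefSeq sequences on the GRCh38.p14 build, plus strand, 250 bases each; 4 of the 5 members matched the table, and CBL had no entry. NF1 lies at chr17:31094727-31094976, LZTR1 at chr22:20982047-20982296 and PTPN1 at chr20:50510133-50510382. Capitals mark matches on either strand to TGACGTCA, GGGCGG or CGGAAGT, which do not overlap one another in these windows.
NF1: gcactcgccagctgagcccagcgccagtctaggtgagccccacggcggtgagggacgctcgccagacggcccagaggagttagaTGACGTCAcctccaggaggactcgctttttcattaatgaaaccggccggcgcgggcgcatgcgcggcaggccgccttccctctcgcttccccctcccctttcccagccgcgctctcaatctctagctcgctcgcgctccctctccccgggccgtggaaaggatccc
LZTR1: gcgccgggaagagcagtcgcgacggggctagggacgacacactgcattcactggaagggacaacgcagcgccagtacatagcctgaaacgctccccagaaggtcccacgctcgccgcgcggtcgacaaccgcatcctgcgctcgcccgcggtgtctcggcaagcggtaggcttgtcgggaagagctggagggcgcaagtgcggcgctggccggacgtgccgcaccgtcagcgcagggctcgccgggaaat
PTPN1: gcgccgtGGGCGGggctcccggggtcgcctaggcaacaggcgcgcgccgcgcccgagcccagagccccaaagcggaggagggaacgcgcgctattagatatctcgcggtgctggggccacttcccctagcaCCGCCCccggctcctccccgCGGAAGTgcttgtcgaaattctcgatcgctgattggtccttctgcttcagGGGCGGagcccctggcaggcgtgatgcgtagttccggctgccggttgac
The NF1 window held 1 match to TGACGTCA, a word found in 1.65% of 35116 windows of the same length. The PTPN1 window held 3 matches to GGGCGG, found in 42.6% of windows, and 1 to CGGAAGT, found in 5.69%. The LZTR1 window held none of the 3 words. CG dinucleotides numbered 25 for NF1, 33 for LZTR1 and 29 for PTPN1, against a median of 11 over all windows. The sgRNA names give a spacing of 64 bases between the sgRNAs of NF1, 62 for LZTR1, 67 for PTPN1, 40 for ABL1 and 20 for CBL. The CBL sgRNAs, both named on the plus strand, thus lie the closest together of the 5 pairs.

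Libraries held 182.6 to 460.7 megareads. Member constructs had medians of 193 to 543 reads per library, and 9 to 47 of the 22720 were at 0 in a library. Log2 counts of replicate libraries correlated at 0.936 to 0.972 over all constructs, which are not independent, and replicates differed beyond counting noise in each group. Reads came from PCR without molecular identifiers.

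Without drug, repression of CBL raised abundance, repression of PTPN1, NF1 and LZTR1 lowered it, and ABL1 sgRNAs stayed with the controls. Growth here is the log2 change of reference over T0 of the reads summed over a gene's 220 constructs with a non-targeting partner, on a scale where 0 is the constructs with 2 non-targeting sgRNAs. Single non-targeting sgRNAs ranged from -0.06 to 0.08. Cultures are listed in the order 2022 replicate 1, 2022 replicate 2, 2023 replicate 1 and 2023 replicate 2.

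PTPN1 constructs changed by -0.83, -0.64, -0.72 and -0.68 (mean -0.72 ± 0.08, SD, n = 4), to 60.8% of the control level. NF1 constructs changed by -0.41, -0.22, -0.19 and -0.20 (mean -0.25 ± 0.11, n = 4), to 83.9%. LZTR1 constructs changed by -0.28, -0.12, -0.09 and -0.08 (mean -0.14 ± 0.09, n = 4). In every culture PTPN1 lay lowest, then NF1, then LZTR1, and for NF1 and LZTR1 the first culture of 2022 was the lowest of the 4. CBL constructs changed by 0.32, 0.35, 0.44 and 0.40 (mean 0.38 ± 0.06, n = 4), a 1.30-fold gain and the third highest of the 543 genes, after C12orf66 and GPS2. ABL1 constructs changed by 0.00, -0.02, 0.00 and -0.01.

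In edgeR's quasi-likelihood test the Benjamini-Hochberg adjusted p for growth was 1.33e-06 for PTPN1, 0.000232 for NF1, 0.00161 for LZTR1, 1.99e-07 for CBL and 0.576 for ABL1. Thus 4 of the 5 members were called in growth, where 85.3% of all 543 genes were called, 81% lower and 4.24% higher. The share of members called lies near that background, and a call alone sets none of them apart. The median growth change of all genes was -0.46, so NF1 and LZTR1 were depleted less than the typical gene of this library. Under TMM scaling, which centres on the bulk of genes and moves the median by 0.45, PTPN1 stayed lower at -0.26, but NF1 and LZTR1 turned to 0.20 and 0.31 and ABL1 to 0.45. The direction of NF1 and LZTR1 in growth is therefore a direction against the non-targeting controls alone.

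The members' order was CBL, ABL1, LZTR1, NF1, PTPN1 from high to low. Each step between neighbours had the same sign in 4 of 4 cultures: 0.38 ± 0.06 from ABL1 to CBL, 0.14 ± 0.10 from LZTR1 to ABL1, 0.11 ± 0.02 from NF1 to LZTR1 and 0.46 ± 0.05 from PTPN1 to NF1. An exact two-sided sign-flip permutation test over 4 cultures gave p = 0.125 for each step, the smallest it can give. Among all genes, NF1 lay between KIDINS220 (-0.26) and CCNB2 (-0.25), and LZTR1 between PABPC1 (-0.15) and DCP1A (-0.14), all within the members' own SD. PTPN1 lay between RBBP8 (-0.72), a DNA end resection factor, and ETF1 (-0.70), a translation termination factor. CBL at 0.38 lay above MTF2 (0.30), a polycomb accessory protein, and below GPS2 (0.51).

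The sgRNAs of a gene differed most for LZTR1 and PTPN1. The first LZTR1 sgRNA gave a growth change of -0.27, and the second gave -0.03, which was not called (edgeR adjusted p = 0.225). The PTPN1 sgRNAs gave -0.95 and -0.43, the NF1 sgRNAs -0.30 and -0.22, and the CBL sgRNAs 0.38 and 0.37. Constructs that carried both sgRNAs of one gene changed by -1.47 ± 0.26 for PTPN1, -0.55 ± 0.13 for NF1, -0.35 ± 0.08 for LZTR1, 0.31 ± 0.10 for CBL and 0.00 ± 0.05 for ABL1. For PTPN1, NF1 and LZTR1 this mean was lower than that of either sgRNA with a non-targeting partner, and for CBL it was not higher.

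Under niraparib all 4 brakes lost ground against their own reference arm. The response is the log2 change of niraparib over reference, for which non-targeting sgRNAs ranged from -0.08 to 0.05. PTPN1 changed by -0.43, -0.63, -0.36 and -0.33 (mean -0.44 ± 0.13, n = 4), to 73.9% of control. NF1 changed by -0.22, -0.38, -0.37 and -0.33 (mean -0.33 ± 0.07, n = 4), and LZTR1 by -0.22, -0.35, -0.35 and -0.35 (mean -0.32 ± 0.07, n = 4). CBL changed by -0.24, -0.30, -0.25 and -0.21 (mean -0.25 ± 0.04, n = 4), opposite in sign to its growth change. ABL1 stayed at -0.00 ± 0.01. All 4 cultures lay below the non-targeting range for each of the 4 brakes, although that range is of means over the 4 cultures and not of single cultures.

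edgeR's adjusted p for the response was 3.37e-05 for PTPN1, 7.78e-05 for NF1, 3.12e-05 for LZTR1, 4.90e-06 for CBL and 0.580 for ABL1. The response was called for 79.9% of all genes, 35.7% lower and 44.2% higher, and the median of all genes was 0.01. The 4 called members were lower under each of the 3 other scalings tried. The sizes for PTPN1, NF1 and LZTR1 moved by over 1.5 times under 1 of them, in which the change to the niraparib endpoint was rescaled by the ratio of the constants that divide the authors' deposited reference and niraparib phenotypes. There PTPN1 stood at -0.97, NF1 at -0.59, LZTR1 at -0.53 and CBL at -0.19. The step from ABL1 down to CBL was 0.25 ± 0.03 in 4 of 4 cultures (exact permutation p = 0.125). The steps from CBL to LZTR1 (0.06 ± 0.07), from LZTR1 to NF1 (0.01 ± 0.02) and from NF1 to PTPN1 (0.11 ± 0.13) each held in 3 of 4 cultures, with exact permutation p of 0.25, 0.5 and 0.375. PTPN1 lay below CBL in 4 of 4 cultures, by 0.18 ± 0.10 (exact permutation p = 0.125), and no neighbouring brakes were separated in all cultures. Both LZTR1 sgRNAs responded alike, at -0.33 and -0.31, although their growth changes differed.

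From T0 to the niraparib endpoint, PTPN1 fell by 1.15 ± 0.13 on the log2 scale, to 44.9% of control, NF1 changed by -0.58 ± 0.05 and LZTR1 by -0.46 ± 0.03. CBL was still above the controls, at 0.13 ± 0.07. These totals passed edgeR's test for 4 of 5 members, against 87.7% of all genes (82.1% lower and 5.52% higher), and share libraries with both earlier contrasts. Under TMM scaling LZTR1 stood at -0.02 in total and was not called.

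**Figure D1:**
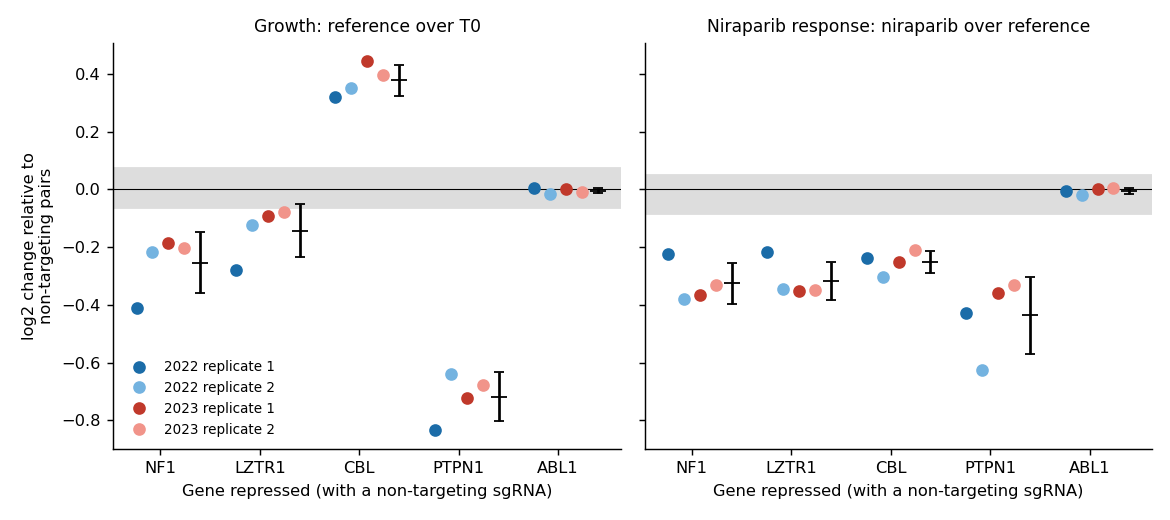
Log2 change of the summed reads of each member against constructs with 2 non-targeting sgRNAs, for growth (reference over T0) and niraparib response (niraparib over reference). Points are the 4 cultures, bars the mean ± SD, and the grey band is the range of the 55 non-targeting sgRNAs, each as its mean over the 4 cultures. CBL lies above the band in growth (0.38) and below it in the response (-0.25), PTPN1 has the lowest mean in both, and ABL1 stays inside the band. Under TMM scaling the growth values of NF1 and LZTR1 turn positive (0.20 and 0.31).

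The growth changes of 2022 and 2023 did not pass the test of their difference for any member, although 31.1% of all genes did (30% lower in 2023 and 1.1% higher). The difference, 2023 minus 2022, was 0.12 for NF1 (edgeR adjusted p = 0.238), 0.12 for LZTR1 (0.150), 0.09 for CBL (0.0528) and 0.04 for PTPN1 (0.741). This count of 0 depended on the 2022 cultures: without replicate 1 it was 2, and without replicate 2 it was 4. For the response the difference also passed for 0 members, against 0.368% of all genes, and became 2 and 4 without the same cultures. The 2022 replicates of NF1 themselves stood at -0.41 and -0.22.

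Other genes of the pathway gave a frame for these values. Of 29 listed genes that drive RAS and MAPK signalling, 6 were in the library, among them SOS1, GAB2, the phosphatase gene PTPN11 (SHP2), the kinase gene MAPK3 and MYC. In growth 5 fell and 0 rose, led by GAB2 (-0.98) and SOS1 (-0.79), with a median of -0.13 against -0.46 over all genes. Of all genes 81% were called lower and 4.24% higher in growth, so this count of falls lay near the background. PTPN11 (-0.03) and MYC (-0.21) moved less, and both turned positive under TMM scaling, where 2 of the 6 were lower and 4 higher. In the response 0 fell and 5 rose, led by SOS1 (0.52) and GAB2 (0.44), and the median was 0.18 against 0.01. Of all genes 35.7% were called lower and 44.2% higher in the response. With the niraparib change scaled to the reference constant, SOS1 stood at 0.39 and GAB2 at 0.18, and 4 of the 6 were called higher. MYC (0.05) stood at -0.02 in that setting and was not called. MAPK3 was not called in either contrast, but TMM scaling called it higher in growth (0.48) and lower in the response (-0.03), so that 1 of the 6 fell there. The responses of SOS1 and GAB2 thus had the opposite sign to those of NF1, LZTR1, CBL and PTPN1, and each pair of contrasts shares its reference libraries.

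Of 25 listed brakes of tyrosine kinases and cytokine receptors, 4 were measured, among them CBL, PTPN1 and the lipid phosphatase gene INPPL1 (SHIP2). In growth 2 fell and 2 rose, and in the response 3 fell and INPPL1 rose by 0.25. INPPL1 fell by 0.29 in growth but turned to 0.16 under TMM scaling, and 1 of the 3 falls in the response was not called with DESeq2. Of 14 genes on a list drawn up for mTORC1 restraint, 3 were measured. Like CBL they rose in growth and fell in the response: C12orf66 by 0.75 and -0.44, GPS2 by 0.51 and -0.39, and TSC1 by 0.13 and -0.11. A role of GPS2 in restraining mTORC1 was not tested here. The list of BCR-ABL partners held ABL1 and PIK3CA alone of 18. PIK3CA changed by -0.18 in growth and turned positive under TMM scaling.

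The interaction score asks whether a pair of knockdowns changed abundance more or less than the partners of each sgRNA would predict. For each sgRNA a curve was drawn through all its partners, from the partner's own change to the change of the pair, and the score is the log2 distance from that curve, averaged over both orders and 4 sgRNA combinations. A score below 0 is a pair more depleted than its curve, and one above 0 is less depleted. Of the 2700 gene pairs that hold a member, 76 were called at the reference endpoint by limma at an adjusted p under 0.05, or 2.81%, against 1.87% of all 147044 pairs (1.06% lower and 0.813% higher). PTPN1 had 40 of these calls, NF1 15, LZTR1 11, CBL 10 and ABL1 1, each over 542 partners. This count fell to 0 without either 2022 culture and rose to 391 with the limma prior spread as a trend of reads, an alternative chosen after seeing the data that called 7.26% of all reference pairs, 10.8% of niraparib pairs and 3.25% of differences, but all 76 kept their sign under each of these.

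Among the 10 pairs of members, CBL with PTPN1 was the one called at the reference endpoint. The 8 constructs had 3624, 3758, 2343 and 2140 reads at T0 and 3402, 3488, 1354 and 1331 reads at the reference endpoint. On the control scale the pair changed by -1.40, -1.25, -1.47 and -1.27 (mean -1.35 ± 0.10, n = 4). CBL alone changed by 0.37 and PTPN1 alone by -0.69, as means over single constructs, which sum to -0.32. The pair was thus more depleted than PTPN1 alone in every culture, although CBL knockdown alone raised abundance. The score was -0.75, -0.86, -1.01 and -0.86 (mean -0.87 ± 0.11; limma adjusted p = 0.0130), and the 4 sgRNA combinations gave -0.79, -0.82, -0.88 and -0.99. It was the lowest score called for either gene. Its sign held in all 13 alternatives, from -1.03 to -0.83, and it was called in 11 of them. Without 2022 replicate 1 the adjusted p was 0.107 and without replicate 2 it was 0.105.

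Under niraparib the CBL and PTPN1 pair changed by -1.85, -1.72, -1.54 and -1.44 from T0, with a deviation from the sum of -0.64, and the score was -0.60 ± 0.06 (limma adjusted p = 0.0102). The change in score from reference to niraparib was 0.27, which did not pass (adjusted p = 0.224).

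The other pairs of brakes also scored below 0. At the reference endpoint NF1 with PTPN1 scored -0.29 (limma adjusted p = 0.0588), NF1 with LZTR1 -0.24 (0.0645), LZTR1 with PTPN1 -0.21 (0.0861), CBL with LZTR1 -0.15 (0.137) and CBL with NF1 -0.13 (0.195), none of which passed. Under niraparib NF1 with PTPN1 passed at -0.41 (0.0258), and the other 4 ranged from -0.25 to -0.20 without passing. NF1 with PTPN1 was called in 7 of 13 alternatives, and against the plain sum of single changes its deviation was -0.14 ± 0.11 and that of LZTR1 with PTPN1 -0.02 ± 0.12. NF1 with LZTR1 changed by -0.85, -0.53, -0.63 and -0.52 in the reference arm, lower than either gene alone in every culture. The 4 pairs with ABL1 scored 0.01 to 0.07 at the reference endpoint, and none was called. CBL with ABL1 changed by 0.39 ± 0.07, against 0.37 for CBL alone.

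**Figure D2:**
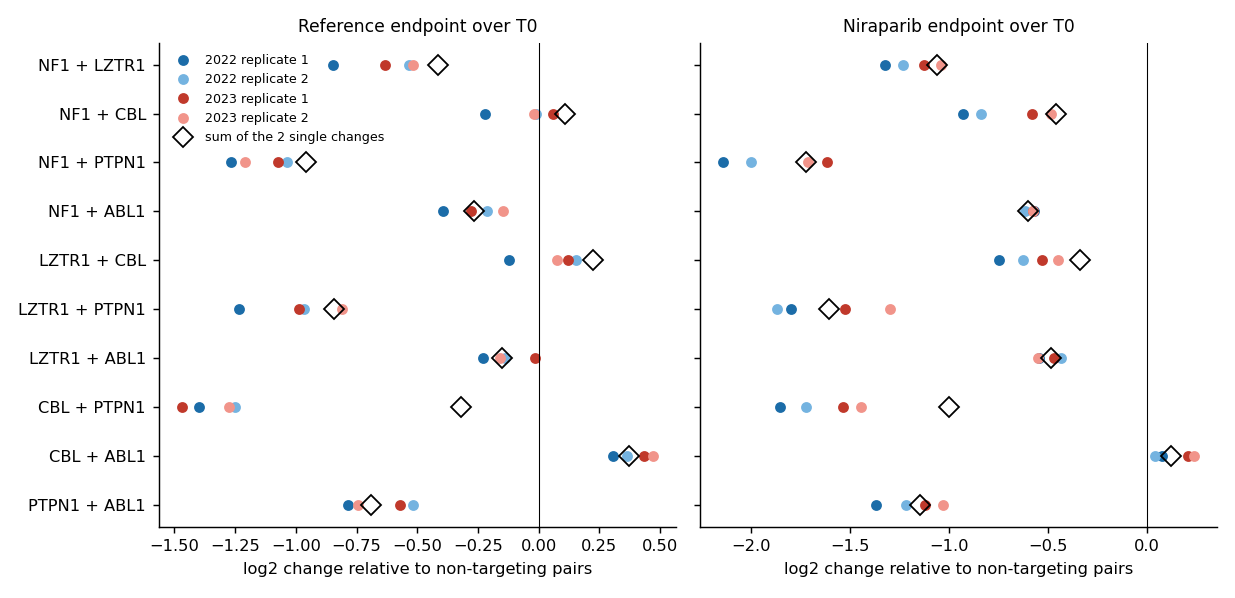
Log2 change over T0 of the 10 pairs of members at the reference and niraparib endpoints. Points are the 4 cultures and diamonds the sum of the 2 single changes. CBL with PTPN1 has a mean of -1.35 in the reference arm, with all 4 points below its diamond at -0.32, and the points of pairs with ABL1 lie close to their diamonds.

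SOS1, GAB2 and INPPL1 were called above 0 with both NF1 and LZTR1, and for NF1 they were the 3 called. SOS1 alone changed by -0.82 ± 0.10 and GAB2 alone by -1.01 ± 0.10, as means over single constructs. With NF1 repressed too, SOS1 constructs changed by -0.41, -0.20, -0.44 and -0.26 (mean -0.33 ± 0.12, n = 4), where the single changes sum to -1.08. LZTR1 with SOS1 changed by -0.37, -0.27, -0.38 and -0.26 (mean -0.32 ± 0.07, n = 4). Constructs against both genes were thus less depleted than those against SOS1 alone. NF1 with GAB2 changed by -0.36, -0.36, -0.60 and -0.51 (mean -0.46 ± 0.12) and LZTR1 with GAB2 by -0.53, -0.35, -0.38 and -0.45 (mean -0.43 ± 0.08).

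The scores were 0.68 ± 0.08 for NF1 with SOS1, 0.66 ± 0.08 for NF1 with GAB2, 0.60 ± 0.06 for LZTR1 with SOS1 and 0.63 ± 0.09 for LZTR1 with GAB2, with limma adjusted p of 0.0157, 0.0155, 0.0157 and 0.0155. Each kept its sign in 13 of 13 alternatives and was called in 9 of them; without 2022 replicate 1 the adjusted p of these pairs ran from 0.111 to 0.113, and without replicate 2 from 0.113 to 0.120. INPPL1 gave a smaller score of the same sign with both genes, 0.35 ± 0.03 with NF1 and 0.34 ± 0.04 with LZTR1 (limma adjusted p = 0.0323 and 0.0356). PTPN11 gave 0.27 and 0.26, which did not pass (0.0604 and 0.0628). Of the 6 RAS and MAPK drivers, 2 were called higher and 0 lower with each of NF1 and LZTR1, against 3 and 5 called higher over all 542 partners.

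SOS1 and GAB2 were also called above 0 with PTPN1 and were not called with CBL; the difference between members was not tested. PTPN1 with SOS1 changed by -0.73, -0.55, -0.91 and -0.74 (mean -0.73 ± 0.15), near either single change (-0.69 and -0.82) and above their sum of -1.51. The scores were 0.48 for SOS1 and 0.36 for GAB2 (limma adjusted p = 0.0215 and 0.0427), and 0.78 and 0.84 against the plain sum. CBL with SOS1 scored -0.16 (0.136) and with GAB2 0.27 (0.0532). CBL with INPPL1 was called at 0.52 ± 0.09 (0.0199): that pair changed by 0.48, 0.46, 0.53 and 0.59 (mean 0.52 ± 0.06), above CBL alone (0.37), whereas INPPL1 alone was at -0.30. ABL1 scored between -0.01 and 0.05 with SOS1, GAB2 and INPPL1.

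Under niraparib GAB2 kept scores of 0.63 with NF1, 0.56 with LZTR1 and 0.56 with PTPN1, and SOS1 gave 0.45, 0.36 and 0.56, all called. NF1 with SOS1 changed by -0.34 ± 0.05 from T0 to the niraparib endpoint, where NF1 alone changed by -0.59 and SOS1 alone by -0.28 ± 0.07. Unlike at the reference endpoint, the mean of this pair was thus not above that of SOS1 alone. INPPL1 was called with PTPN1 at 0.36 (limma adjusted p = 0.0242) and was not called with NF1 (0.19) or LZTR1 (0.24). None of these scores changed between endpoints by an amount that passed the test.

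**Figure D3:**
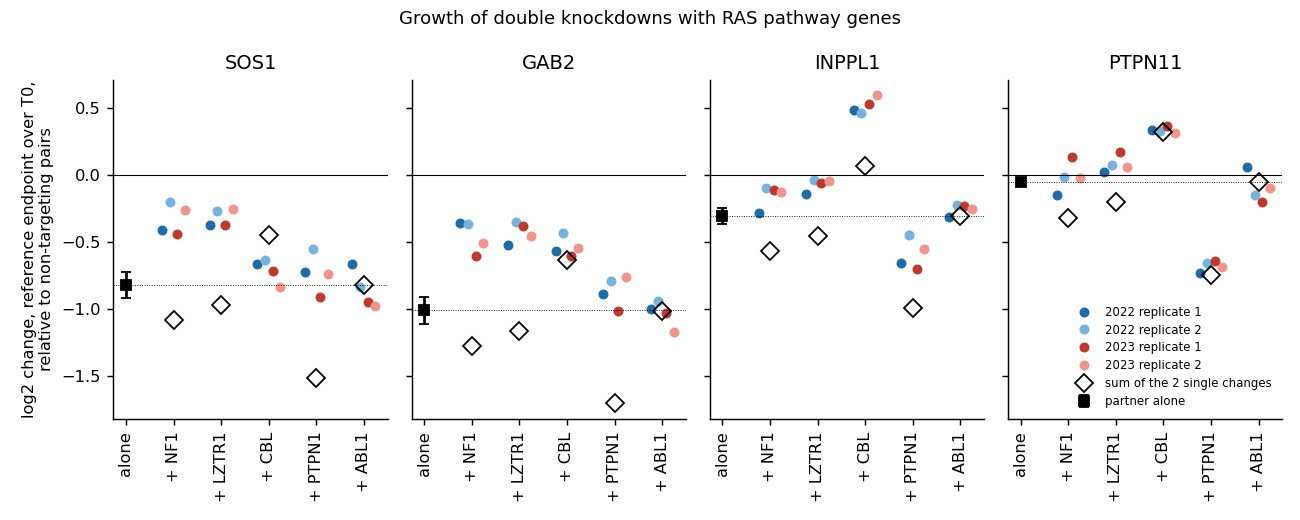
Log2 change of the reference endpoint over T0, relative to non-targeting pairs, for SOS1, GAB2, INPPL1 and PTPN11 (1 panel each) repressed alone (black squares, mean ± SD, n = 4, with a dotted line at that mean) and together with each member. Points are the 4 cultures and diamonds the sum of the 2 single changes. The SOS1 and GAB2 pairs with NF1 and LZTR1 lie above both the dotted line and their diamonds, and the pairs with ABL1 lie close to the dotted line.

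SMARCE1, OPA1 and BAP1 were the 3 lowest called partners of NF1 and of LZTR1. SMARCE1, a subunit of the SWI/SNF remodeller, scored -0.67 ± 0.19 with NF1 and -0.55 ± 0.12 with LZTR1 (limma adjusted p = 0.0164 and 0.0273), and OPA1, the inner-membrane fusion GTPase of mitochondria, -0.53 and -0.44. NF1 with SMARCE1 changed by -1.61 ± 0.23 from T0, against a sum of -1.09. With PTPN1 repressed the SMARCE1 pair changed by -1.02 ± 0.18 against a sum of -1.52, a deviation from the sum of the opposite sign. BAP1, a deubiquitinase of histone H2A, scored below 0 with all 4 brakes: -0.49 with NF1, -0.36 with LZTR1, -0.52 with CBL and -0.51 with PTPN1 (0.0398, 0.0301, 0.0224 and 0.0187). BAP1 alone changed by -0.13 ± 0.04 in growth, and with CBL the pair changed by -0.29 ± 0.08, where CBL alone stood at 0.37. With ABL1, BAP1 scored 0.06 and was not called. DNMT1, the maintenance DNA methyltransferase, was called with NF1 at -0.46, and stood at -0.25 against the plain sum.

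The highest called score at the reference endpoint was that of PTPN1 with PPP2R2A, a regulatory subunit of the phosphatase PP2A, at 0.89, 0.85, 1.15 and 1.03 (mean 0.98 ± 0.14; limma adjusted p = 0.00994). It was 1.22 ± 0.07 under niraparib (0.00218) and kept its sign in 13 of 13 alternatives at each endpoint; at the reference endpoint 11 of 13 called it. WAPAL, which releases cohesin, scored 0.72 with PTPN1, and C12orf66 scored 0.51. At the low end PTPN1 scored -0.61 with the deubiquitinase gene USP15 and -0.56 with the transcription factor gene TCF3. CBL scored 0.47 with NDUFA8 and 0.33 with NDUFB2, both subunits of respiratory complex I, and 0.39 with POLR3A of RNA polymerase III. Several of these moved by over 1.5 times against the plain sum of single changes: TCF3 to -0.12, which was not called, C12orf66 to 0.21, NDUFA8 to 0.30, NDUFB2 to 0.18 and POLR3A to 0.15.

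LZTR1 with ASCC3, a helicase subunit of the ASC-1 complex, scored 0.87 ± 0.23 (limma adjusted p = 0.0208), but its sgRNAs disagreed. The first LZTR1 sgRNA gave 1.32 and 1.70 with the ASCC3 sgRNAs and the second gave 0.32 and 0.14. ABL1 had 1 call at the reference endpoint, with the transcription factor gene GTF2B at -0.40 ± 0.08 (0.0251).

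Over 541 shared partners the reference scores of NF1 and LZTR1 correlated at Pearson r = 0.716, and each was the most similar of all genes to the other. The next genes were PTPN1 (0.340) and DGKD (0.337) for NF1 and POLQ (0.274) and PTPN1 (0.272) for LZTR1. CBL and PTPN1 were also each other's nearest, at 0.444, followed by MYEOV2 (0.424) and WRAP53 (0.422) for CBL and E4F1 (0.405) and NF1 (0.340) for PTPN1. CBL gave 0.101 with NF1 and 0.036 with LZTR1, against a median of 0.070 over all genes. For ABL1 the highest was 0.348, with HSD17B12, and ABL1 gave 0.118 with NF1 and 0.105 with LZTR1. Partners share their libraries and their own curves, so these values are descriptions. At the level of sgRNAs, NF1 against LZTR1 gave 0.436, 0.369, 0.496 and 0.466, where the same-gene values were 0.412 for NF1 and 0.431 for LZTR1. The same-gene value was 0.647 for PTPN1, 0.463 for CBL and 0.143 for ABL1, so the ABL1 profile was the least repeatable of the 5.

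**Figure D4:**
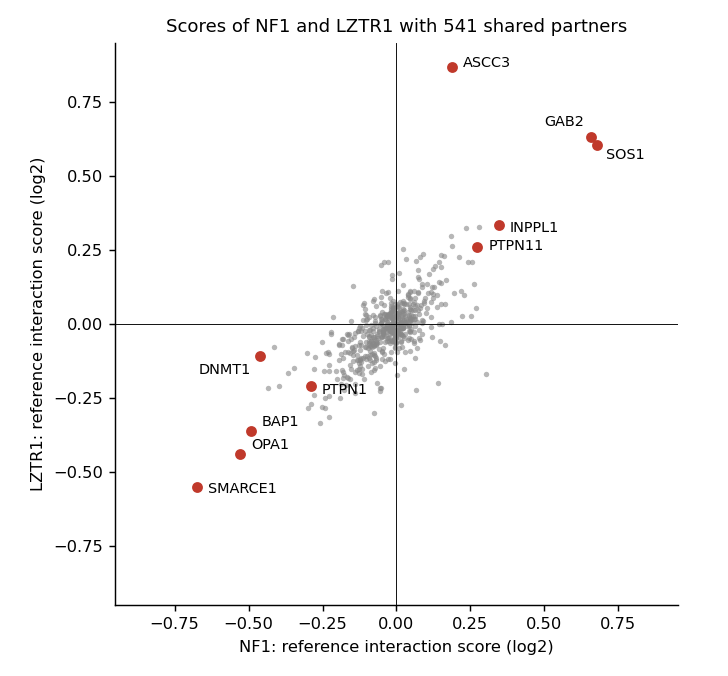
Reference interaction scores (log2) of NF1 on the horizontal axis and of LZTR1 on the vertical axis over 541 shared partners, each point the mean of 4 cultures. Pearson r is 0.716, and the labelled partners (red) include SOS1 and GAB2 at the upper right and SMARCE1 at the lower left.

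Under niraparib the members had more calls, with 141 below 0 and 62 above, against 43 and 33 at the reference endpoint. Of 2700 pairs, 203 were called by limma, or 7.52%, against 4.39% of all pairs (2.31% lower and 2.07% higher). NF1 had 39 partners called lower and 3 higher, LZTR1 36 and 5, CBL 10 and 6, PTPN1 54 and 48, and ABL1 4 and 0. Leaving out 1 culture lowered the count to between 15 and 115; all 203 kept their sign there, and 201 did with a T0 minimum of 100 reads.

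Homologous recombination and Fanconi anemia genes, which repair the breaks and crosslinks that stop replication forks, were called among the low partners of all 4 brakes. Of 41 measured, 10 were called lower with NF1, 14 with LZTR1, 13 with PTPN1, 2 with CBL and 0 with ABL1, and 0 were called higher with any. Scores below 0 numbered 39, 37, 38, 37 and 32 of 41 in the same order. The median score of the list was -0.19 for NF1, -0.18 for LZTR1, -0.23 for PTPN1, -0.09 for CBL and -0.04 for ABL1, where all 542 partners had medians of -0.05, -0.03, -0.02, -0.00 and -0.02. At the reference endpoint the only calls in this list were 2 with PTPN1: BRCA2 at -0.49 and BARD1 at -0.44.

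By name, RAD51B, a homologous recombination gene, scored -0.80 ± 0.10 with PTPN1 and -0.63 ± 0.13 with NF1 (limma adjusted p = 0.00770 and 0.00934). RAD54L, a motor protein of recombination, scored -0.71 ± 0.08 with LZTR1 and -0.62 ± 0.11 with NF1 (0.00744 and 0.0115). PSMC3IP (HOP2), a cofactor of strand exchange, scored -0.63 with NF1 and -0.57 with LZTR1, and SWI5 scored -0.67 with PTPN1. HUS1, of the checkpoint clamp, scored -0.58 with LZTR1. Each of these scores was below 0 in 4 of 4 cultures. Against the plain sum of single changes they were smaller: RAD51B stood at -0.23 with PTPN1 and -0.41 with NF1, RAD54L at -0.42 with LZTR1 and -0.28 with NF1, PSMC3IP at -0.36 with NF1 and -0.34 with LZTR1, SWI5 at -0.26 and HUS1 at -0.37. All 8 were still called by limma in that setting. These repair genes also respond to niraparib when repressed alone: 37 of the 41 fell in the response and 0 rose, with a median of -0.67. Of all genes 35.7% were called lower in the response and 44.2% higher.

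DNPH1, which clears a damaged nucleotide before it enters DNA, was low with all 4 brakes under niraparib. Scores were -0.67 ± 0.14 with NF1, -0.68 ± 0.11 with LZTR1, -0.76 ± 0.05 with PTPN1 and -0.33 ± 0.17 with CBL (limma adjusted p = 0.0134, 0.00946, 0.00617 and 0.0321), and -0.07 with ABL1, which was not called. DNPH1 alone changed by -0.03 in growth and by -1.97 ± 0.13 from T0 to the niraparib endpoint. NF1 with DNPH1 changed by -2.95, -3.05, -2.74 and -2.86 and LZTR1 with DNPH1 by -2.84, -2.87, -2.88 and -2.81, both below the sums of -2.56 and -2.44 in the mean. PTPN1 with DNPH1 changed by -3.244, -3.205, -3.052 and -2.999, a mean of -3.13, where the sum is -3.10. Measured against the plain sum, the deviation of that pair was -0.02, so its score rests on the curve used for the expectation.

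PARP1, the target of the drug, lay at the other end. PARP1 constructs changed by 1.38 ± 0.16 from T0 to the niraparib endpoint, and by -0.76 ± 0.40 to the reference. PTPN1 with PARP1 had 3382, 4515, 2190 and 1936 reads at the reference endpoint and 10518, 11167, 8457 and 7959 under niraparib. On the control scale that pair changed by 0.29, 0.40, 0.61 and 0.77 from T0 under niraparib (mean 0.52 ± 0.21), against a sum of 0.25. The niraparib scores were 0.80 ± 0.10 for PTPN1, 0.39 ± 0.06 for LZTR1 and 0.35 ± 0.09 for NF1 (limma adjusted p = 0.00809, 0.0191 and 0.0308), and 0.10 for CBL, not called. The 4 sgRNA combinations of PTPN1 and PARP1 gave 0.67 to 0.96. The sgRNAs of NF1 and LZTR1 differed more: the first NF1 sgRNA gave 0.22 and 0.17 and the second 0.48 and 0.56, and the first LZTR1 sgRNA gave 0.55 and 0.47 and the second 0.22 and 0.32. Against the plain sum the values were 0.27 for PTPN1, 0.26 for LZTR1 and 0.23 for NF1. Of 12 partners around PARP1 and single-strand break repair, 5, 6, 6, 1 and 0 were called lower with NF1, LZTR1, PTPN1, CBL and ABL1, and PARP1 was the 1 called higher with the first 3. Over all 542 partners 7.75%, 7.56%, 18.8%, 2.95% and 0.738% were called in either direction, in the same order. Repressed alone, 9 of these 12 genes fell in the response and 3 rose, with a median of -0.98.

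**Figure D5:**
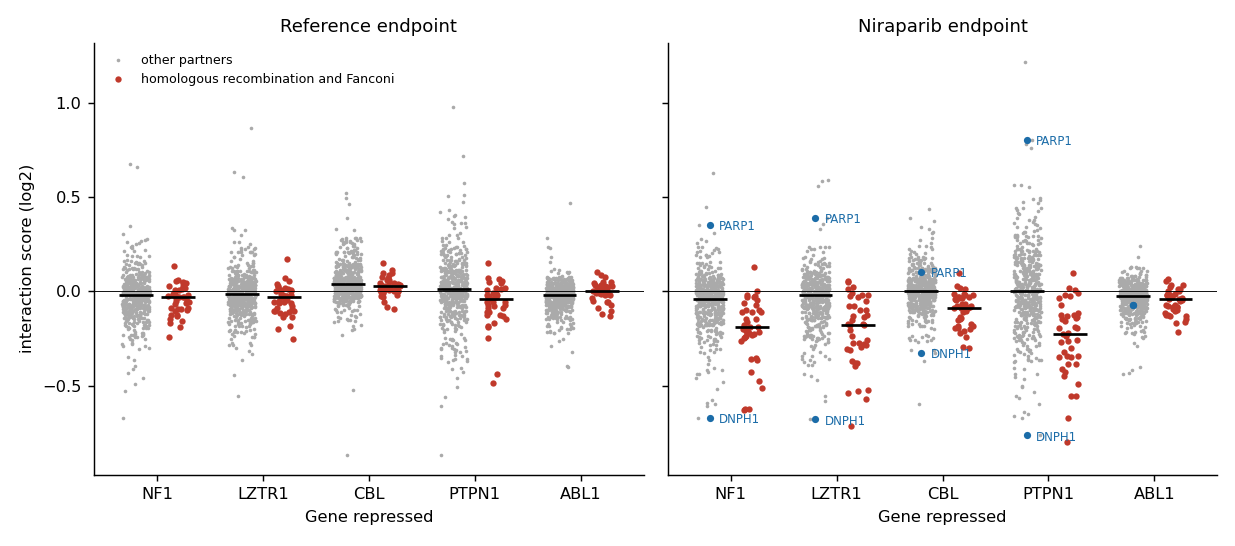
Interaction scores of each member with 41 homologous recombination and Fanconi partners (red) and with the other partners (grey), at both endpoints; each point is 1 partner gene, the mean of 4 cultures, and horizontal bars are medians. Blue points are PARP1 and DNPH1. Under niraparib the red medians are -0.19 for NF1, -0.18 for LZTR1, -0.09 for CBL, -0.23 for PTPN1 and -0.04 for ABL1.

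The difference of scores, niraparib minus reference, was called for 3 of 2700 pairs, or 0.111%, against 0.159% of all pairs (0.0544% lower and 0.105% higher), a share near the background. They were PTPN1 with PARP1 at 0.96, 1.16, 0.80 and 1.06 (mean 0.99 ± 0.15; limma adjusted p = 0.0303), PTPN1 with DNPH1 at -0.73 ± 0.05 (0.0303) and LZTR1 with DNPH1 at -0.66 ± 0.11 (0.0458). All 3 had the same sign in 4 of 4 cultures, and the 4 combinations of sgRNAs of PTPN1 and PARP1 ran from -0.22 to -0.15 at the reference endpoint. None was called when any 1 culture was left out. Without the replicate block the count was 22. Against the sum of single changes PTPN1 with PARP1 fell to 0.18 (limma adjusted p = 0.348), PTPN1 with DNPH1 turned to 0.02 and LZTR1 with DNPH1 stood at -0.40; with a straight line PTPN1 with PARP1 stood at 0.61 (0.0720). NF1 with DNPH1, at -0.65, and NF1 with PARP1, at 0.40, did not pass (0.0712 and 0.111). For the repair list no difference was called, and its medians were -0.15, -0.16, -0.17, -0.14 and -0.05 for NF1, LZTR1, PTPN1, CBL and ABL1.

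ABL1 knockdown had few interactions under niraparib as well. Its 4 calls were HJURP (-0.44 ± 0.22), a centromere histone chaperone, ATR (-0.43 ± 0.21), the replication stress kinase, DCTN5 (-0.40 ± 0.11), a dynactin subunit, and RPF2 (-0.27 ± 0.18), a ribosome assembly factor. With a T0 minimum of 100 reads RPF2 turned to 0.18 and ATR stood at -0.27, neither called. Under niraparib the profile correlations among the 4 brakes were higher: NF1 with LZTR1 gave r = 0.778, NF1 with PTPN1 0.626, LZTR1 with PTPN1 0.610 and CBL with PTPN1 0.641. Among the genes nearest to PTPN1 were NAA50 (0.708) and DNPH1 (0.676). ABL1 stayed at 0.187 or below with each of the other members.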

How the data were processed

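The members, partner lists and tests were chosen with earlier results of these data known. Per the labels, sgRNA cassettes were amplified from genomic DNA and sequenced, and Bowtie2 2.3.4.1 is named in the submitters' processing notes. The authors deposited raw counts of reads per construct and tables of log2 phenotypes; the log2 phenotypes were recomputed from the counts to within 1e-09 and not tested. The genome build behind the sgRNA names is not given in the sources used here.

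Counts were summed over each gene's 220 constructs with a non-targeting partner, with the reads of 3025 non-targeting pairs as library size. All 12 libraries entered 1 edgeR 4.0.16 quasi-likelihood fit (R 4.3.3) with a replicate block, since each culture was sampled and then divided per the labels. Replicate deviations correlated between arms at 0.0311 to 0.0816, so the pairing rests on the labels. The fit had 4 residual degrees of freedom, and p-values measure the spread between cultures within screens. They were adjusted by Benjamini-Hochberg over all genes and non-targeting sgRNAs.

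Interaction scores kept constructs whose T0 counts averaged 30 or more, 1 read added to each count, a curve of degree 2 per sgRNA with at least 100 partners, and limma 3.58.1 with a term for the screen, adjusted over 147044 pairs at a threshold of 0.05. Named partners were the members' pairs, the pathway lists and up to 4 called partners in each direction per member; BRCA2, BARD1 and repeats of a named partner across other members were named after their values were seen. Tested on data simulated with 1 spread for all genes, edgeR called 81 of 100 changes of 0.1 and 100 of 100 of 0.25, with 1 false call of 398. In the real data edgeR called 3 of the 55 non-targeting sgRNAs in growth (5.45%), and 2 in response and 2 in total (3.64% each). On simulated scores the interaction test called 1 of 500 at 0.25 and 310 of 500 at 0.5, with 10 false calls of 146044. Alternatives included TMM, DESeq2 1.42.0, single sgRNAs or orders, other count minima, other expectations and leaving out cultures.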

Additional observations from a re-analysis of the deposited data

Results flagged for a closer look

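In 3 of 45 sets of 4 cultures, 1 culture stood apart by Dixon's ratio of gap to range; chance flags about 1 in 20. The LZTR1 response gave a ratio of 0.941, with 2022 replicate 1 at -0.22 and the other cultures at -0.35. NF1 growth gave 0.869, with the same culture at -0.41 and the others from -0.22 to -0.19. The niraparib score of ABL1 with CBL gave 0.910, around a mean of 0.02 that was not called. What set these cultures apart was not tested.

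The score differed between the niraparib and reference endpoints for 3 pairs by limma: DNPH1 with LZTR1 by -0.66, DNPH1 with PTPN1 by -0.73 and PARP1 with PTPN1 by 0.99.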

How the results depend on the processing

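Counts of members called in growth, response and total (4 of 5 each) stayed within 1.5 times under all alternatives run. Where values below changed, the cause was not tested, except that leaving out cultures lowers the number of samples. Growth of NF1, LZTR1 and ABL1 turned to 0.20, 0.31 and 0.45 with TMM and to 0.14, 0.25 and 0.39 with DESeq2, which shifted the all-gene median by 0.45 and 0.39; the total change of ABL1 became 0.43 and 0.42. All genes split into 440 lower and 23 higher in growth, against 259 and 250 with TMM and 275 and 237 with DESeq2. In the response they split 194 to 240, against 156 to 299 with DESeq2 and 342 to 46 with niraparib changes scaled to the reference constant; in total 446 to 30, against 294 to 229 and 296 to 222. Without the replicate block the pairing changed 1 call in the growth screen difference (0 to 1) and the differential count (3 to 22), and no other count by over 1.5 times. Screen differences in growth (0 members) became 1 with TMM, 3 with DESeq2 and 0 to 4 with a culture left out; those in response became 2 with DESeq2 and 0 to 4. The growth screen difference of PTPN1 ran from -0.062 (without 2022 replicate 1) to 0.135 (without 2022 replicate 2). Calls of reference scores (76) were 0 to 51 with a culture left out, 391 with a trended spread (chosen after seeing the data), 202 with 10 added to each count, 126 with a straight line, 592 against the sum of singles and 2 or 3 with one order alone. Niraparib calls (203) were 15 to 115, 604, 390, 847 (sum) and 31 or 24 in the same way, and differential calls (3) 0 to 0, 274, 61, 1 (straight line), 113 and 0 or 0, with 20 without a screen term and 5 without a T0 minimum. Against the sum of singles, 68 of the 76 and 164 of the 203 kept their sign, and the difference for PTPN1 with DNPH1 turned to 0.017. ABL1 with RPF2 turned to 0.18 with a T0 minimum of 100. Of 1527 alternative values for named pairs, 283 lost their call and 30 gained one. Interactions of 0.25 were mostly below what 4 cultures can call.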
